A study of Mus musculus with 8 samples.

Results

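The acute phase proteins are plasma proteins that the liver makes in changed amounts during inflammation. Here they were followed in each liver through 10 genes: *Saa1*, *Saa2*, *Saa3* and *Saa4* of the serum amyloid A family, *Hp* (haptoglobin), *Hpx* (hemopexin), *Orm1* and *Orm2* (orosomucoids), *Lcn2* (lipocalin 2) and *Apcs* (serum amyloid P component). The genes were picked by name, through the Ensembl identifiers that the GENCODE M21 annotation of GRCm38 gives them. No value entered that rule, but the list was chosen with earlier results of these data known. All 10 were present among the 45706 identifiers of the deposited counts, and all 10 passed the filter on low counts that left 15491 genes to test. The livers came from 8 male mice of the strain labelled C56B6/J, given as C57BL/6J in the methods of the study. At 6 weeks of age the mice were injected through the tail vein with an adeno-associated virus, AAV2/8, carrying an shRNA in a miR-30-based backbone with GFP. The shRNA targeted *Srsf10*, which encodes an SR-family splicing factor, in 4 mice (label Srsf10_KD, genotype Srsf10KD) and was a control in the other 4 (label Ctrl, genotype WT). After 4 weeks both groups went onto a high-fat diet (HFD) with 60% of calories from fat, for 12 weeks. The control livers therefore also carried virus, shRNA and diet, and the chicken β-actin promoter of the vector is not restricted to hepatocytes. The libraries were poly(A)-selected whole-liver RNA, so fewer cells of a type and less RNA per cell cannot be told apart.

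In inflammation, cytokines such as interleukin 6 and interleukin 1 act on hepatocytes through the transcription factors STAT3, NF-kappaB and C/EBP, and raise the transcription of genes such as *Saa1* and *Saa2* from a low resting level. Proteins such as haptoglobin and hemopexin are abundant in plasma at rest and change over a narrower range. *Saa4* is known as the constitutive member of its family.

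Total counts were 50538612 to 59697241 in the *Ctrl* livers and 50456404 to 56575926 in those labelled *Srsf10-kd*. *Srsf10*, the targeted gene, was measured at 30.9 to 35.3 CPM (counts scaled to the same library size in every liver) in the *Ctrl* livers and at 34.0 to 41.0 CPM in the livers labelled *Srsf10-kd*. It was not lower under the knockdown label in these counts (log2 fold change 0.15, SE 0.10, adjusted p = 0.378 by edgeR's quasi-likelihood test). The study itself reports lower *Srsf10* RNA by qPCR and lower protein by western blot in livers given the knockdown vector. The sources used here do not tie those assays to the livers sequenced. The label is therefore used below only as a name for the livers, and every direction refers to the label. The liver labelled *Srsf10-kd* 3 stood apart on the first principal component of all tested genes, at 67.4 against 1.92 to 11.5 in the other livers of its label. The liver labelled *Srsf10-kd* 2 held 303 CPM of 6 exocrine pancreas genes, chosen after their values were seen, against 8.01 to 22.9 CPM in the other 7 livers. Hepatocyte markers summed to 29675 to 37605 CPM in the *Ctrl* livers and to 25240 to 26653 CPM in the livers labelled *Srsf10-kd*, so every liver of the *Srsf10-kd* label lay below every *Ctrl* liver. Of the 8 hepatocyte markers 7 were lower (median log2 fold change -0.24), with 0 called by edgeR, 2 lower at an unadjusted p under 0.05 and 1, *Apob*, called lower by DESeq2. Over all genes, 21.8% had an unadjusted p under 0.05 by edgeR and DESeq2 called 5.27%, in either direction. The part of this shift in the members' values was not tested.

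*Saa1* and *Saa2* are neighbours on chromosome 7, transcribed away from each other. *Saa1* (ENSMUSG00000074115) lies at chr7:46740497-46742980 on the minus strand and *Saa2* (ENSMUSG00000057465) at chr7:46751790-46754313 on the plus strand, 8809 bases apart, in GRCm38. *Saa4* (ENSMUSG00000040017, chr7:46727998-46732603, minus strand) and *Saa3* (ENSMUSG00000040026, chr7:46711998-46715700, minus strand) follow on the other side of *Saa1*. RefSeq promoters of GRCm38.p6 were found for 8 of the 10 genes, all but *Hp* and *Orm1*. Their starts are those of RefSeq and can differ from the GENCODE gene bounds given in this report. The window of *Lcn2* lies within the GENCODE bounds of that gene, and the window of *Saa2* overlaps those of *Saa2*. The 250 bases before the start of *Saa1* (chr7:46742981-46743230, minus strand), *Saa2* (chr7:46751583-46751832, plus strand), *Lcn2* (chr2:32387740-32387989, minus strand) and *Saa4* (chr7:46732604-46732853, minus strand) are shown 5′ to 3′, because the first 3 of these genes had the widest ranges over livers and *Saa4* varied on a different pattern. Capitals mark matches on either strand to TTNNGNAA, a C/EBP motif, or to GGGNNNNNCC, an NF-kappaB motif. In *Saa1* 1 match of each kind adjoin, so they read as 1 run of capitals.
Saa1: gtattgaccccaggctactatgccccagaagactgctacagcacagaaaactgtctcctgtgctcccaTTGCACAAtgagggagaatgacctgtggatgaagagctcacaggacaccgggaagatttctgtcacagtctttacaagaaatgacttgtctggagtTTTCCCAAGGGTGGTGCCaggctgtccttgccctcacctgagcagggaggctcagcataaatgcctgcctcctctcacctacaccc
Saa2: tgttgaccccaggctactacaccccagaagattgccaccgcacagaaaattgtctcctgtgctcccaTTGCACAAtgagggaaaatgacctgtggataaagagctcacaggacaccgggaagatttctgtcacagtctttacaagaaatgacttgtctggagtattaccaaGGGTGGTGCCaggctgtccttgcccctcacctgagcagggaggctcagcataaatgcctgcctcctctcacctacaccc
Lcn2: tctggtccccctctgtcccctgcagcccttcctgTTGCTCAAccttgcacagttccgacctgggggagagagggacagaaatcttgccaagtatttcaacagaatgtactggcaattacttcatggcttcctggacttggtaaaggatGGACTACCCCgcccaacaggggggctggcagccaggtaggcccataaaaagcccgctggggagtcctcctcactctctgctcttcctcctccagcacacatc
Saa4: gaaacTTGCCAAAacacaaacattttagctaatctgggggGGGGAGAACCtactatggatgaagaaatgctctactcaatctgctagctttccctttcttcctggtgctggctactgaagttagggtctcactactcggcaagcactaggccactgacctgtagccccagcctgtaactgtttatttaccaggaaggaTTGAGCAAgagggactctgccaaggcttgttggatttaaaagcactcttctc

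The *Saa1* and *Saa2* promoters were identical at 238 of 251 aligned columns (94.8%), whereas the next most alike pair among the 8 promoters, *Saa1* and *Lcn2*, reached 54.8%. *Saa1* had C/EBP matches beginning 182 and 86 bases before its start, and *Saa2* had 1, beginning 183 bases before. The NF-kappaB motif was matched once in each, 78 and 79 bases before the start. *Lcn2* had 1 C/EBP match at 216 bases and 1 NF-kappaB match at 102 bases. *Saa4* had C/EBP matches at 245 and 52 bases and an NF-kappaB match at 210 bases. The promoters not shown, of *Apcs*, *Orm2*, *Saa3* and *Hpx*, had no NF-kappaB match, and all of these but *Apcs* had a C/EBP match. Both motifs are short, and of 32851 RefSeq mouse promoters of the same length 36.8% held the C/EBP motif and 45.8% the NF-kappaB motif. TTCNNNGAA, a STAT motif held by 7.02% of promoters, was matched in *Apcs* alone among the 8. These matches are letters in a window and were not tested for binding.

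*Saa1* encodes an apolipoprotein that associates with high-density lipoprotein during inflammation. It was measured at 42.2, 18.0, 22.0 and 29.4 CPM in *Ctrl* 1 to 4. In the livers labelled *Srsf10-kd* 1 to 4 it was measured at 747, 102, 130 and 17.6 CPM. Replicate 1 of the *Srsf10-kd* label was far above every other liver, replicates 2 and 3 were above all *Ctrl* livers, and replicate 4 was the lowest of the 8, so the groups overlapped. Dixon's ratio, the gap beside an extreme liver over the range of its label, was taken on log2 CPM. Under the *Srsf10-kd* label it was 0.47 for *Saa1*, on the low side at replicate 4. On the high side it was 0.48 for *Saa2* and 0.56 for *Lcn2*. No member reached the critical value for 4 livers under either label, so this ratio did not flag replicate 1. The liver labelled *Srsf10-kd* 1 held 42851 *Saa1* counts, 26.8-fold the *Ctrl* mean (27.9 ± 10.6 CPM, SD, n = 4) and 5.74-fold the next highest liver. The log2 fold change between labels was 3.16 (SE 0.91) and did not pass the test (adjusted p = 0.132, edgeR). It was 1.58 (SE 0.55) without the liver labelled *Srsf10-kd* 1.

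*Saa2*, whose protein acts like that of *Saa1*, was measured at 18.9, 7.39, 11.5 and 8.48 CPM in *Ctrl* 1 to 4. It was measured at 516, 64.0, 37.5 and 6.82 CPM in replicates 1 to 4 of the *Srsf10-kd* label. The order of the livers was close to that of *Saa1*: replicate 1 of the *Srsf10-kd* label highest, replicates 2 and 3 above all *Ctrl* livers, and replicate 4 lowest of the 8. The highest liver held 44.6-fold the *Ctrl* mean and 8.06-fold the next liver. The log2 fold change was 3.75 (SE 1.09, adjusted p = 0.133, edgeR), and 1.64 (SE 0.60) without that liver.

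*Saa1* and *Saa2* were the only members called by any of the 3 tools run. DESeq2, the tool named in the study's methods, gave adjusted p = 0.0415 for *Saa1* and 0.0331 for *Saa2*. It called 2 of the 10 members, both higher, where it called 5.27% of all genes in either direction and 2.02% higher. Of the stretches of 75 bases (the read length) in their annotated transcripts, 18.5% of those in *Saa1* and 17.8% of those in *Saa2* were shared between the 2 genes. Reads lying wholly in such a stretch cannot be assigned to 1 gene by themselves, though in paired ends the mate can place them. STAR counts only reads that align to 1 place, so the counts of both genes can leave out pairs that lie wholly in such stretches. The share of pairs left out was not computed. Together they took 0.128% of all counts in the liver labelled *Srsf10-kd* 1, 0.0172% and 0.0158% in replicates 2 and 3, and 0.00245% in replicate 4, against 0.00260% to 0.00612% in the *Ctrl* livers. The count ratio of *Saa2* to *Saa1* was 0.691 and 0.626 in replicates 1 and 2 of the *Srsf10-kd* label. It was 0.288 in replicate 3, and 0.288 to 0.525 in the *Ctrl* livers.

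*Saa3*, which is made in macrophages and fat as well as in other cells, was the lowest member per length. It was measured at 5.19, 4.28, 6.09 and 1.90 CPM in *Ctrl* 1 to 4. It was measured at 11.7, 3.21, 7.92 and 4.15 CPM in replicates 1 to 4 of the *Srsf10-kd* label. Only replicates 1 and 3 of the *Srsf10-kd* label lay above the *Ctrl* range, and replicate 1 exceeded the next liver 1.48-fold. Its log2 fold change of 0.63 (SE 0.44, adjusted p = 0.390, edgeR) was 0.22 (SE 0.41) without the liver labelled *Srsf10-kd* 1.

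*Saa4* did not share the pattern of its neighbours. It was measured at 384, 374, 234 and 191 CPM in *Ctrl* 1 to 4 and at 209, 336, 528 and 217 CPM in replicates 1 to 4 of the *Srsf10-kd* label. The liver labelled *Srsf10-kd* 1, highest for *Saa1* and *Saa2*, was the second lowest here, and replicate 3 was the highest. The log2 fold change was 0.12 (SE 0.33, adjusted p = 0.833, edgeR), and its sign turned without the liver labelled *Srsf10-kd* 3 (-0.22), without *Ctrl* 4 (-0.04) and with limma-voom (-0.43).

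**Figure D1:**
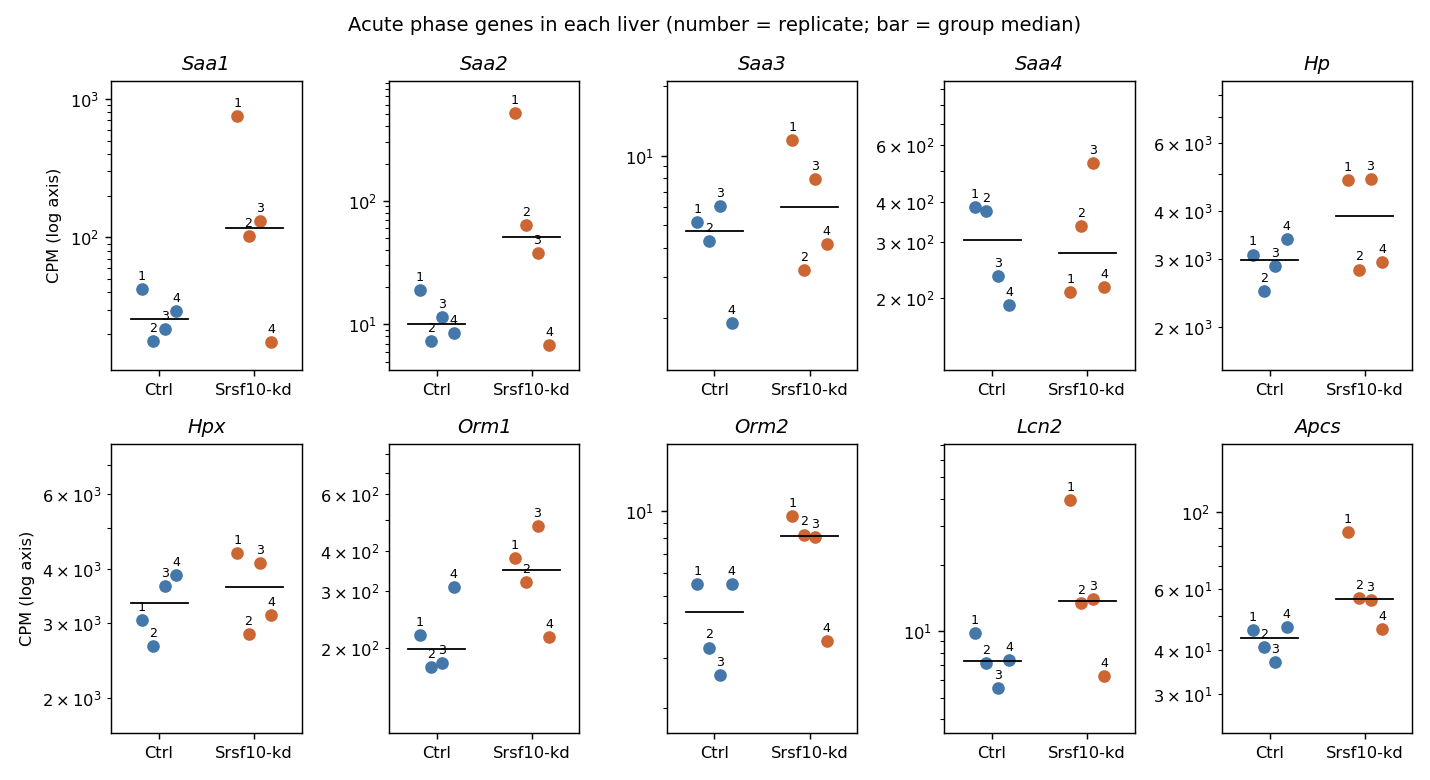
Each panel plots 1 acute phase gene, with CPM on a log axis of its own and the livers of the 2 labels side by side. Points are livers, numbers their replicates and bars group medians; *Srsf10-kd* 1 is the highest point for *Saa1* (747 CPM), *Saa2*, *Saa3*, *Hpx*, *Orm2*, *Lcn2* and *Apcs*, and *Srsf10-kd* 4 lies within or below the *Ctrl* range throughout.

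*Lcn2* encodes a lipocalin that binds bacterial siderophores and is made by hepatocytes in inflammation and by neutrophils. *Lcn2* (ENSMUSG00000026822, chr2:32384633-32388252, minus strand) was measured at 9.83, 7.18, 5.53 and 7.43 CPM in *Ctrl* 1 to 4. In the livers labelled *Srsf10-kd* 1 to 4 it was measured at 39.4, 13.5, 14.05 and 6.24 CPM. Replicate 1 was again far above the rest, replicates 2 and 3 were above all *Ctrl* livers and replicate 4 was within their range. The liver labelled *Srsf10-kd* 1 stood 5.26-fold above the *Ctrl* mean and 2.81-fold above the next liver. The log2 fold change of 1.29 (SE 0.47, adjusted p = 0.173, edgeR) was 0.58 (SE 0.29) without it. A list of 11 neutrophil markers summed to 3.71 CPM in that liver, 2.48, 2.55 and 1.19 CPM in the other livers of its label and 2.13 to 2.32 CPM in the *Ctrl* livers. Only 3 of the 11 passed the filter, and the part of neutrophil RNA in the *Lcn2* values was not tested.

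*Apcs* encodes serum amyloid P component, a pentraxin that is a major acute phase protein of the mouse. *Apcs* (ENSMUSG00000026542, chr1:172893961-172895041, minus strand) was measured at 45.7, 40.9, 37.0 and 46.7 CPM in *Ctrl* 1 to 4 and at 87.2, 56.5, 55.8 and 46.0 CPM in replicates 1 to 4 of the *Srsf10-kd* label. The *Ctrl* livers lay close together, within 1.26-fold, and only replicate 4 of the *Srsf10-kd* label fell among them. edgeR gave a log2 fold change of 0.53 (SE 0.19, adjusted p = 0.166), and 0.31 (SE 0.13) without the liver labelled *Srsf10-kd* 1. An exact permutation test of log2 CPM over the 70 ways to split 8 livers gave p = 0.0571 (two-sided), where the smallest p this design allows is 0.0286. This was the lowest of the 10 members: the same exact permutation test gave p = 0.0857 for *Orm1*, 0.114 for *Lcn2*, 0.143 for each of *Saa1*, *Saa2* and *Orm2*, and 0.286 to 0.886 for the other 4.

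The orosomucoids bind small lipophilic molecules in plasma, and their genes lie in a row on chromosome 4. *Orm1* (ENSMUSG00000039196, chr4:63344560-63348163, plus strand) was measured at 219, 174, 179 and 309 CPM in *Ctrl* 1 to 4 and at 380, 320, 479 and 216 CPM in replicates 1 to 4 of the *Srsf10-kd* label. Here replicate 3 was the highest, replicates 1 to 3 were above all *Ctrl* livers and replicate 4 was not. By edgeR the log2 fold change was 0.66 (SE 0.26, adjusted p = 0.189), 0.62 (SE 0.28) without the liver labelled *Srsf10-kd* 1, and 0.30 (SE 0.26) with the correction for transcript length described below.

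*Orm2* (ENSMUSG00000061540, chr4:63362449-63365878, plus strand) was far lower, at 5.50, 3.27, 2.61 and 5.49 CPM in *Ctrl* 1 to 4. It was measured at 9.59, 8.23, 8.03 and 3.46 CPM in replicates 1 to 4 of the *Srsf10-kd* label. Replicates 1 to 3 formed a close set above all *Ctrl* livers. By edgeR the log2 fold change was 0.79 (SE 0.33, adjusted p = 0.209). *Orm1* and *Orm2* shared 97 stretches of 75 bases, 13.8% of those in *Orm1*. *Orm3*, which lies between them and was in the list of other positive acute phase genes, had another order: 6.17 and 5.21 CPM in replicates 2 and 3 of the *Srsf10-kd* label, and 0.298 to 1.12 CPM in the other 6 livers, replicate 1 included. It was singled out after its values were seen.

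Haptoglobin binds free haemoglobin and hemopexin binds free haem, and their genes were the most expressed members per length. *Hp* (ENSMUSG00000031722, chr8:109575128-109579172, minus strand) was measured at 3084, 2473, 2878 and 3380 CPM in *Ctrl* 1 to 4 and at 4817, 2820, 4827 and 2945 CPM in replicates 1 to 4 of the *Srsf10-kd* label. *Hpx* (ENSMUSG00000030895, chr7:105591613-105600137, minus strand) was measured at 3038, 2650, 3645 and 3884 CPM and at 4363, 2815, 4134 and 3132 CPM in the same order. For both, replicates 1 and 3 of the *Srsf10-kd* label were above all *Ctrl* livers, and replicates 2 and 4 were within the *Ctrl* range. The log2 fold changes were 0.38 (SE 0.21, adjusted p = 0.297) for *Hp* and 0.13 (SE 0.19, adjusted p = 0.689) for *Hpx*, by edgeR.

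Per kilobase of transcript, the members spanned a wide range of levels. *Hpx* had a median over the 8 livers of 2261 CPM per kb and *Hp* of 2241 CPM per kb, and their order was not stable, as *Hpx* was above *Hp* in 2 of 8 livers. *Orm1* (340 CPM per kb) and then *Saa4* (136 CPM per kb) followed, each below the gene before it in all 8 livers. *Saa1* (58.7 CPM per kb), *Apcs* (47.7 CPM per kb) and *Saa2* (23.3 CPM per kb) changed places between livers. *Saa4* was above *Saa1* in 6 of 8 livers, *Saa1* above *Apcs* in 5 and *Apcs* above *Saa2* in 5. *Lcn2* (9.43 CPM per kb), *Orm2* (7.10 CPM per kb) and *Saa3* (2.15 CPM per kb) were below *Saa2* and in that order in all 8. In the liver labelled *Srsf10-kd* 1, *Saa1* reached 1227 CPM per kb and *Saa2* 791 CPM per kb, above *Orm1* at 490 CPM per kb. All members together took 1.13% of the counts in that liver, 0.674%, 0.961% and 0.662% in replicates 2 to 4 of its label, and 0.589% to 0.778% in the *Ctrl* livers.

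Read liver by liver, the livers labelled *Srsf10-kd* were not alike. Each gene's log2 CPM was set against its mean over the 8 livers, and the median of these deviations over the 10 genes was taken for each liver. The median was 0.83, 0.23 and 0.62 in replicates 1 to 3 of the *Srsf10-kd* label. It was -0.37 in replicate 4 and -0.51 to -0.12 in the *Ctrl* livers. The first 3 replicates lay above the *Ctrl* livers and the fourth among them. Of the 10 genes, 9 were above their own mean in replicate 1 (all but *Saa4*), 7 in replicate 2, 10 in replicate 3 and 0 in replicate 4, against 1 to 4 in the *Ctrl* livers. The medians without *Saa1* and *Saa2*, an alternative chosen after seeing the data, were 0.67, 0.19, 0.58 and -0.27 under the *Srsf10-kd* label and -0.39 to -0.04 in the *Ctrl* livers.

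**Figure D2:**
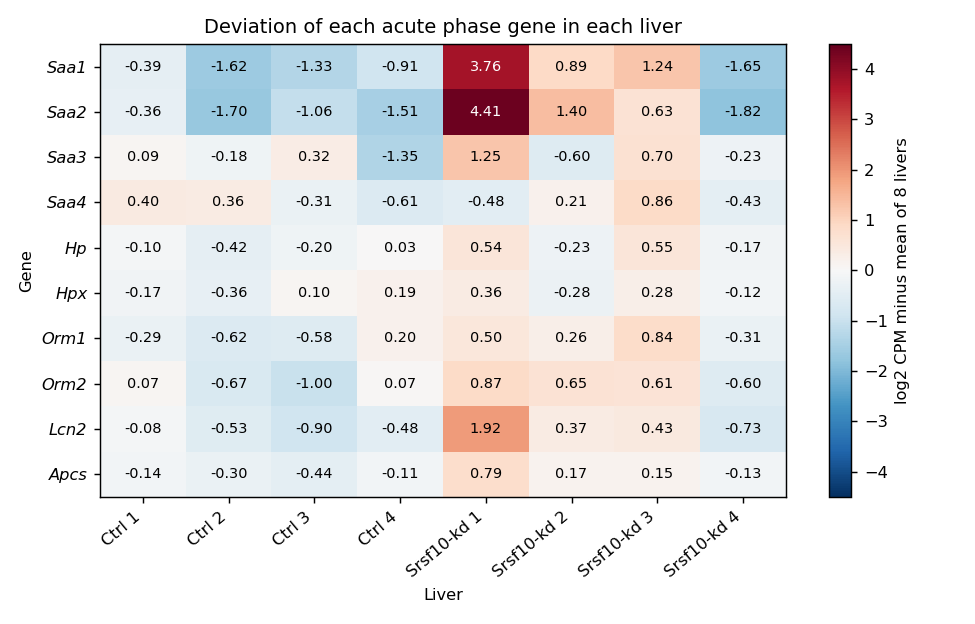
The map shows log2 CPM minus the gene's mean over 8 livers, for 10 genes (rows) and 8 livers (columns), with red above and blue below the mean. The column of *Srsf10-kd* 1 holds the highest values, 4.41 for *Saa2* and 3.76 for *Saa1*, and *Srsf10-kd* 4 is below the mean in every row.

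Replicate 1 of the *Srsf10-kd* label was the highest of the 8 livers for 7 of the 10 members, where it was the highest for 6.38% of all genes tested. Replicate 3 was the highest for the other 3, *Saa4*, *Hp* and *Orm1*, where it was the highest for 3450 of 10967 genes with a mean log2 CPM of at least 1. Among 10967 genes with a mean log2 CPM of at least 1, only 5 were at least 2-fold above every other liver in the liver labelled *Srsf10-kd* 1. In order of that ratio they were *Saa2*, *Saa1*, *Lcn2*, *Ly6d* and *Slc15a2*, so 3 of the 10 members were among them, against 0.0456% of the 10967 genes. *Ly6d*, a surface protein gene, was at 11.6 CPM against 2.26 to 5.29 CPM in the other livers, and *Slc15a2*, a peptide transporter gene, at 8.25 CPM against 0.321 to 3.81 CPM. By the same count, 55 genes stood out in replicate 3, 15 in replicate 2 and 14 in *Ctrl* 4, none of them a member, and 0 in the other 4 livers.

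Between the labels, all 10 log2 fold changes were above 0, with a median of 0.65 against 0.01 over all genes tested. None of the 10 was called by edgeR at an adjusted p under 0.05, where 0.071% of all genes were called, and none by limma-voom with sample quality weights, where 11.7% were. At an unadjusted p under 0.05, edgeR placed 6 of 10 members higher (*Saa1*, *Saa2*, *Orm1*, *Orm2*, *Lcn2* and *Apcs*), where it placed 11.2% of all genes higher and 21.8% in either direction. Without the liver labelled *Srsf10-kd* 1 the median fell to 0.45 and the count to 3 of 10, beside 11.9% of all genes higher and 22.1% in either direction, and edgeR then called 0 of all genes at an adjusted p under 0.05 (0.0%). Without replicate 3, the liver apart on the first principal component, the median was 0.56 and the count 4 of 10, beside 7.73% of all genes. Without replicate 2 they were 0.72 and 6 of 10, beside 12.3%. In 0 of 10 members were all livers labelled *Srsf10-kd* above all *Ctrl* livers, where 6.73% of all genes tested showed this.

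**Figure D3:**
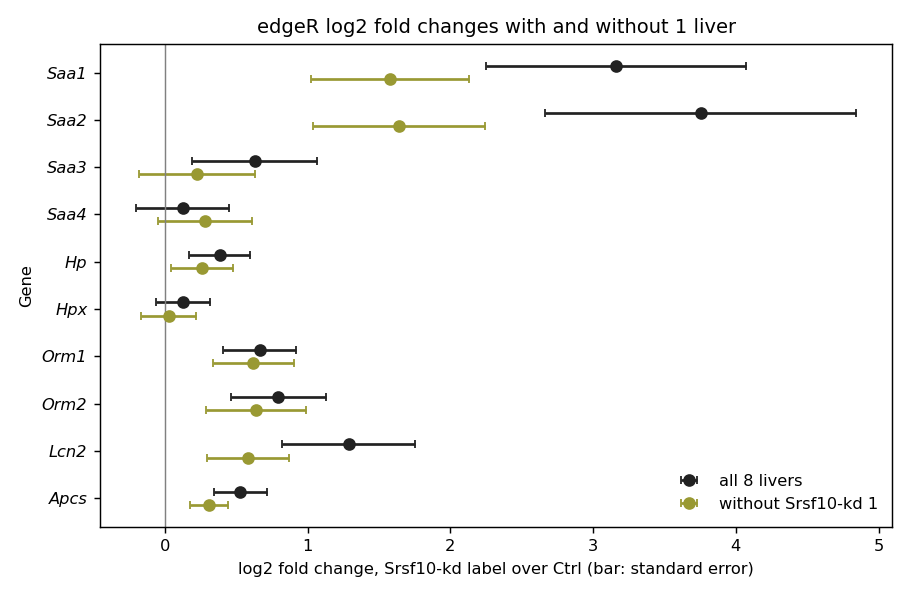
Points are edgeR log2 fold changes of the *Srsf10-kd* label over *Ctrl* for each gene, with bars of 1 standard error, from all 8 livers (black) and without *Srsf10-kd* 1 (olive). *Saa1* moves from 3.16 to 1.58 and *Saa2* from 3.75 to 1.64, while *Orm1* stays near its value (0.66 and 0.62).

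The 10 members have transcripts of 609 to 2200 bases, all shorter than the median of the tested genes (2841 bases), and the livers differed in how counts depended on length. The slope of log2 deviation on log2 length was -0.19 in the liver labelled *Srsf10-kd* 3, -0.07 to -0.02 in the others of its label, and -0.03 to 0.14 in the *Ctrl* livers. After a correction for length fitted in each liver, the median deviation of the members was 0.82, 0.21, 0.16 and -0.44 in replicates 1 to 4 of the *Srsf10-kd* label and -0.55 to 0.03 in the *Ctrl* livers. Replicate 1 thus kept its value and replicate 3 moved from 0.62 to 0.16. The corrected log2 fold changes were 2.87 (SE 0.93) for *Saa1*, 3.52 (SE 1.11) for *Saa2* and 1.03 (SE 0.50) for *Lcn2*, with a median over the members of 0.38. The others moved further in proportion: *Orm1* from 0.66 to 0.30 (SE 0.26), *Apcs* from 0.53 to 0.26 (SE 0.23), *Orm2* from 0.79 to 0.46 (SE 0.37) and *Hp* from 0.38 to 0.16 (SE 0.20). Of the rest, *Saa3* had 0.56 (SE 0.43), *Saa4* 0.02 (SE 0.31) and *Hpx* -0.06 (SE 0.17). With the correction edgeR placed 2 of 10 members higher at an unadjusted p under 0.05, beside 8.15% of all genes higher and 14.8% in either direction.

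Over the 8 livers, by Pearson correlation, *Saa1*, *Saa2*, *Orm2*, *Lcn2* and *Apcs* varied together, as did *Hp* with *Hpx* and *Orm1*. No pair with *Saa3* or *Saa4* passed the test. Of the 45 pairs, 43 had a positive Pearson correlation of log2 CPM and 13 passed at a Benjamini-Hochberg adjusted p under 0.05, by exact permutation over all 40320 pairings of livers. By Spearman's rho 11 pairs passed, and the grouping differed. *Orm1* passed with *Saa1*, *Lcn2* and *Apcs* (rho = 0.88, adjusted p = 0.0326 each) and not with *Hp* (rho = 0.76, adjusted p = 0.103). *Saa2* did not pass with *Orm2* or *Lcn2* (rho = 0.83, adjusted p = 0.0532 each). *Apcs* did not pass with *Saa1* (adjusted p = 0.103) or *Saa2* (adjusted p = 0.184). The share of such pairs among all genes was not computed, and the correlations were not repeated with the length correction. The first principal component held 44.8% of the variance of all tested genes. Variation shared by the members was therefore not separated from variation shared by many genes. *Saa1* and *Lcn2* had r = 0.98 (exact p = 0.000372, adjusted p = 0.0112) and rho = 0.93 (exact p = 0.00223, adjusted p = 0.0251), and r = 0.93 without the 2 livers farthest from the median of *Saa1*. *Saa1* and *Saa2* had r = 0.98 (exact p = 0.000670, adjusted p = 0.0112) and rho = 0.95 (exact p = 0.00114, adjusted p = 0.0251), and r = 0.97 without those livers. *Saa1* and *Apcs* had r = 0.95 (exact p = 0.00174, adjusted p = 0.0112) and rho = 0.76 (exact p = 0.0368, adjusted p = 0.103), and r = 0.80 without them. *Saa1* and *Orm2* had r = 0.87 (exact p = 0.00308, adjusted p = 0.0154) and rho = 0.88 (exact p = 0.00724, adjusted p = 0.0326), and r = 0.89 without them.

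*Saa1* and *Hp* had r = 0.80 (exact p = 0.0196, adjusted p = 0.0573) and rho = 0.62 (exact p = 0.115, adjusted p = 0.272), and r = 0.17 without replicates 1 and 3 of the *Srsf10-kd* label, so this relation rested on those livers. *Hp* and *Hpx* had r = 0.87 (exact p = 0.00203, adjusted p = 0.0114) and rho = 0.88 (exact p = 0.00724, adjusted p = 0.0326), and r = 0.78 without the 2 farthest livers. *Orm1* and *Orm2* had r = 0.89 (exact p = 0.00476, adjusted p = 0.0189) and rho = 0.88 (exact p = 0.00724, adjusted p = 0.0326), and r = 0.92 without the 2 farthest livers. *Saa1* and *Saa4* had r = 0.06 (exact p = 0.900, adjusted p = 0.921) and rho = 0.14 (exact p = 0.752, adjusted p = 0.825), with r = 0.38 without the 2 farthest livers. With each liver set against its group mean, or without the liver labelled *Srsf10-kd* 1 (an alternative chosen after seeing the data), 7 of 45 pairs passed in each case. Without that liver, *Saa1* still had r = 0.95 with *Lcn2* (exact p = 0.00298) and r = 0.91 with *Orm2* (exact p = 0.00615). Other pairs moved without it: *Saa1* with *Saa4* from 0.06 to 0.65 (exact p = 0.128) and *Saa1* with *Saa3* from 0.62 to 0.23 (exact p = 0.616). *Saa4* with *Lcn2* moved from 0.06 to 0.74 (exact p = 0.0698). The low r of *Saa4* with *Saa1* and *Lcn2* over all 8 livers therefore rested on that liver.

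**Figure D4:**
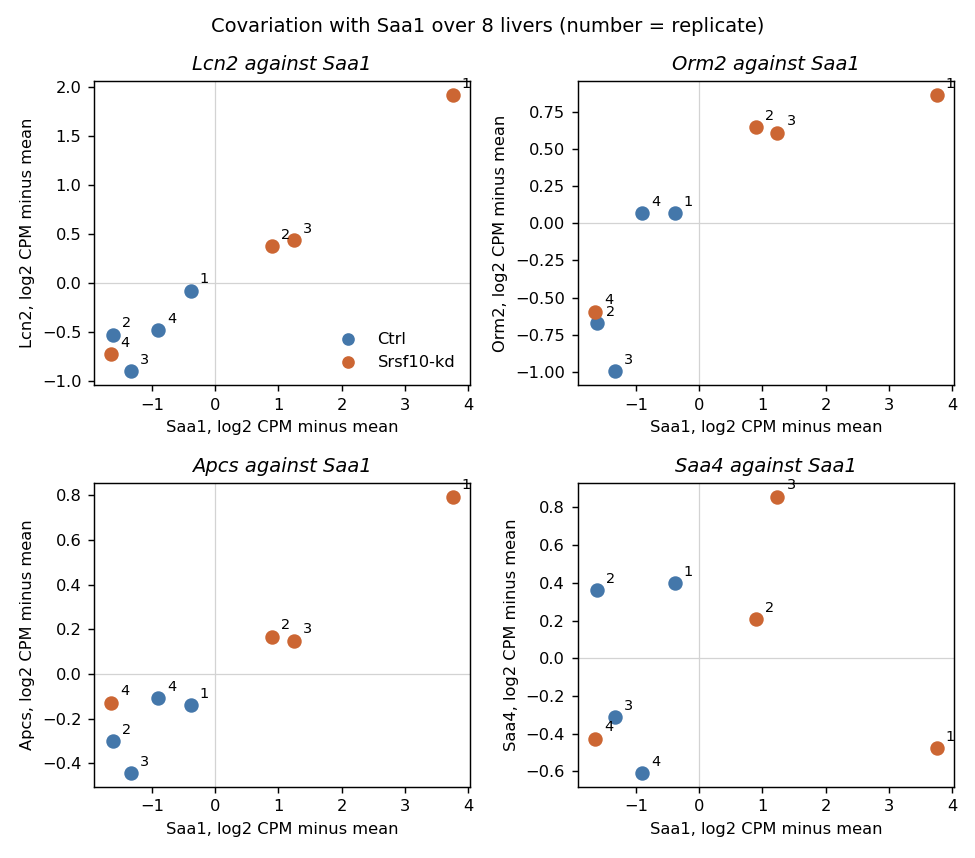
Each panel sets log2 CPM minus the mean of 8 livers of 1 gene (y axis) against that of *Saa1* (x axis), with *Ctrl* livers in blue, livers labelled *Srsf10-kd* in orange and numbers for replicates. *Lcn2* (r = 0.98), *Orm2* (r = 0.87) and *Apcs* (r = 0.95) rise along *Saa1* with *Srsf10-kd* 1 at the upper right, whereas *Saa4* (r = 0.06) does not. Without *Srsf10-kd* 1 the r of *Saa4* with *Saa1* is 0.65.

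Among 10957 other genes with a mean log2 CPM of at least 1, those whose log2 CPM most resembled the mean of the standardised members over 8 livers included *Dctn2* (r = 0.96), *Zfp125* (r = 0.96), *Anxa5* (r = 0.93) and *Lrg1* (r = 0.92). *Lrg1*, which encodes a secreted leucine-rich glycoprotein of the acute phase, was at 986 CPM in the liver labelled *Srsf10-kd* 1 and at 447 to 644 CPM in the other 7. It was also the gene most like *Lcn2* (r = 0.95). *Zfp125* was the most like *Saa1* (r = 0.97) and *Saa2* (r = 0.94), with a range of only 2.74 to 4.06 CPM. The closest genes were *Ica1* for *Saa3* (r = 0.92), *Slc12a2* for *Saa4* (r = 0.99), *Arrb2* for *Hp* (r = 0.95), *Mup16* for *Hpx* (r = 0.96), *Rnase4* for *Orm1* (r = 0.97), *Ssbp4* for *Orm2* (r = 0.94) and *Stbd1* for *Apcs* (r = 0.96). These are the highest of many correlations over 8 livers and are given as a description.

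Some of the other positive acute phase genes were also highest in the liver labelled *Srsf10-kd* 1. It was the highest of the 8 livers for 9 of the 30 tested genes (*Fga*, *Fgb*, *Fgg*, *Itih4*, *Serpina3n*, *Cd14*, *Lrg1*, *Fgl1* and *Cxcl1*), where it was the highest for 6.38% of all genes. Replicate 3 was the highest for 7, where it was the highest for 3450 of 10967 genes with a mean log2 CPM of at least 1. *Hamp* was 1 of these 7, at 1683 CPM in replicate 3. In replicate 1 it was the lowest of the 8 livers, at 373 CPM, against 385 to 638 CPM in the remaining livers. It was singled out after its values were seen. The list's median deviation was 0.16 in replicate 1, -0.02, 0.07 and -0.12 in replicates 2 to 4, and -0.15 to 0.10 in the *Ctrl* livers. The difference between this list and the members was not tested. Of 31 listed genes, such as fibrinogens and complement C3, 30 were tested and 0 were called by edgeR, with 21 log2 fold changes above 0, 9 below and a median of 0.06. At an unadjusted p under 0.05, 4 were higher and 3 lower, where 21.8% of all genes passed in either direction. DESeq2 called 1, *Cxcl1*, higher, and limma-voom 2, 1 higher and 1, *C3*, lower. Over all genes these tools called 5.27% and 11.7%. *Cxcl1*, a neutrophil-attracting chemokine gene, was at 3.61, 2.96, 3.28 and 3.04 CPM in *Ctrl* 1 to 4 and at 7.32, 5.04, 5.45 and 4.33 CPM in replicates 1 to 4 of the *Srsf10-kd* label. Its groups did not overlap, with replicate 1 of the *Srsf10-kd* label again the highest (log2 fold change 0.78, SE 0.17, adjusted p = 0.113, edgeR). In this list the livers labelled *Srsf10-kd* all lay above the *Ctrl* livers for 2 of 30 genes and all below for 2, *Cfb* among the latter. Over all genes tested, 14.3% did not overlap in either direction. *Crp*, for C-reactive protein, was at 305 to 377 CPM and at 386, 336, 408 and 305 CPM (log2 fold change 0.03, SE 0.13, adjusted p = 0.918, edgeR), so the liver highest for *Saa1* was 1 of 2 just above the *Ctrl* range.

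The negative acute phase genes encode plasma proteins that the liver makes less of in inflammation. All 12 listed were tested and 0 were called by edgeR, with 8 log2 fold changes above 0 and a median of 0.19. At an unadjusted p under 0.05, 1 was higher and 0 lower, where 21.8% of all genes passed in either direction. DESeq2 and limma-voom called 1 each, both higher, beside 5.27% and 11.7% of all genes. *Trf*, for transferrin, was at 128 to 171 CPM in the *Ctrl* livers and at 216, 189, 552 and 264 CPM in replicates 1 to 4 of the *Srsf10-kd* label, without overlap (log2 fold change 1.07, SE 0.31, adjusted p = 0.133, edgeR). It was the only 1 of the 12 without overlap, where 14.3% of all genes tested had none. *Ttr*, for transthyretin, was at 3470 to 5210 CPM and at 4741, 5890, 7587 and 6409 CPM (log2 fold change 0.39, SE 0.19, adjusted p = 0.250, edgeR). *Alb*, for albumin, had a log2 fold change of 0.22 (SE 0.20, adjusted p = 0.502, edgeR). For these 3 genes the liver labelled *Srsf10-kd* 1 was not the lowest of the 8, nor outside the range of the others.

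Of 41 genes of the signalling that drives the acute phase, 39 were tested, *Il6* and *Tnf* being too low. edgeR called 0, with 20 log2 fold changes above 0, 19 below and a median of 0.01. At an unadjusted p under 0.05, 5 were higher and 6 lower, where 21.8% of all genes passed in either direction. DESeq2 called 4 (*Nfkbia*, *Cebpb* and *Cebpd* higher, *Il6st* lower) and limma-voom 9, 4 higher and 5 lower. Over all genes these tools called 5.27% and 11.7%. *Nfkbia*, the NF-kappaB inhibitor gene that NF-kappaB itself induces, was at 51.6, 52.9, 57.2 and 48.3 CPM in *Ctrl* 1 to 4 and at 77.6, 72.9, 75.5 and 76.2 CPM in replicates 1 to 4 of the *Srsf10-kd* label. All 4 livers of the *Srsf10-kd* label lay in a narrow band above the *Ctrl* livers, replicate 4 included (log2 fold change 0.52, SE 0.09, adjusted p = 0.0826, edgeR). In this list the livers labelled *Srsf10-kd* all lay above the *Ctrl* livers for 3 of 39 genes and all below for 2. Over all genes tested, 14.3% did not overlap in either direction. *Il6st*, which encodes the shared receptor chain gp130 of interleukin 6 signalling, was at 128 to 161 CPM and at 104, 99.4, 64.0 and 99.2 CPM (log2 fold change -0.68, SE 0.16, adjusted p = 0.115, edgeR). *Stat3* had a log2 fold change of -0.02 (SE 0.15, adjusted p = 0.957, edgeR).

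*Socs3*, a feedback inhibitor that STAT3 induces, was at 13.0, 11.4, 13.6 and 11.6 CPM in *Ctrl* 1 to 4 and at 14.9, 11.1, 18.5 and 18.5 CPM in replicates 1 to 4 of the *Srsf10-kd* label (log2 fold change 0.35, SE 0.16, adjusted p = 0.248, edgeR). Its highest livers were replicates 3 and 4, not replicate 1. The order of the livers for *Nfkbia*, *Il6st* and *Socs3* was therefore not that of *Saa1*.

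Markers of other liver cells were summed for each liver, since immune cells accompany inflammation. In the liver labelled *Srsf10-kd* 1, Kupffer cell markers summed to 397 CPM, within the *Ctrl* range of 278 to 413 CPM, and replicates 2 to 4 had 271, 433 and 231 CPM. Markers of monocytes and lipid-associated macrophages summed to 71.3 CPM there and to 61.4, 80.7 and 61.3 CPM in replicates 2 to 4, against 50.1 to 69.2 CPM in the *Ctrl* livers. B or plasma cell markers (39.6 to 44.3 CPM against 20.4 to 36.2 CPM) and cholangiocyte markers (19.0 to 24.5 CPM against 12.7 to 17.6 CPM) were higher in all livers labelled *Srsf10-kd*, replicate 4 included, and so did not follow the order of *Saa1*. T or NK cell, sinusoidal endothelial and stellate cell markers in replicate 1 were each within the *Ctrl* range, at 3.28, 214 and 206 CPM, and adipocyte markers were at 1.10 CPM against 0.650 to 11.5 CPM. Adipocyte markers reached 31.8 CPM in replicate 3, the liver highest for *Saa4*, *Hp* and *Orm1* and for 3450 of 10967 genes. No listed marker was at 0 in all livers, and the part of these cells in the members' values was not tested.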

How the data were processed

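Poly(A) directional libraries from 8 livers were sequenced in 75-base paired ends and aligned to GRCm38 with STAR 2.7.7a, per the labels and the study's methods. The authors deposited raw counts per gene without normalization. The strand column and annotation release are not given in the sources used here. Each column was matched to a liver by its label. No library was a duplicate of another: a chi-square test of each of the 28 pairs gave 46.5 or more per degree of freedom. STAR counts reads that align to 1 place only.

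Counts were fitted in R 4.3.3 with edgeR 4.0.16 (TMM, filterByExpr, quasi-likelihood test on condition, Benjamini-Hochberg adjusted p under 0.05, two-sided). CPM use TMM-scaled library sizes, and log2 CPM a prior count of 2. DESeq2 1.42.0, limma 3.58.1 (voom with sample quality weights), other scalings and filters, a replicate block, a length correction (lowess, span 0.5) and leaving out each liver were alternatives. The fits were tested on simulated data: at a log2 fold change of 1.5, edgeR recovered 200 of 200 changed genes with 17 false calls among 15293. The simulated counts took their dispersion from the trend over genes, with no liver standing apart and no length effect. This recovery therefore does not carry over to genes as variable between livers as *Saa1*. A member that was not called is not thereby shown to be unchanged. P-values measure the spread between these livers. Counting error is small beside it at this depth, with 108 counts or more per liver for each member.

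The members and lists were chosen with earlier results of these data known. Named genes were all members, from each other list the called genes or the 2 of smallest p, with *Crp*, *Alb*, *Stat3*, *Socs3* and *Nfkbia*, and the most similar genes over livers. Some genes that this rule names are not reported here. Further genes chosen after their values were seen are identified where given. The surveyed lists were markers of hepatocytes and 9 other cell types. Transcript lengths are of the longest protein-coding transcript in GENCODE M21.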

Additional observations from a re-analysis of the deposited data

How the results depend on the processing

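The number of genes called was 11 with edgeR, 824 with DESeq2, 1814 with limma-voom, 46 without the filter, 6 with the length correction, and 0 to 544 without single livers. Leaving out *Ctrl* 3 gave the 544, *Srsf10-kd* 3 gave 64, *Ctrl* 4 gave 5 and *Ctrl* 1 gave 4, and each of the others gave 0. Members called were 2 with DESeq2 and 0 under the other settings, including 0 to 0 without single livers. DESeq2 and limma-voom called 1 and 2 other positive acute phase genes, 1 and 1 negative genes and 4 and 9 signalling genes, where edgeR called 0 of each. Without single livers, signalling calls were 0 to 1 (1 without *Ctrl* 3). The sign of the log2 fold change turned for *Hpx* with the length correction (-0.060), and for *Saa4* with limma-voom (-0.43) and when *Ctrl* 4 (-0.04) or *Srsf10-kd* 3 (-0.22) was left out, within -0.22 to 0.28 over single livers. The cause was not tested. Member correlations that passed fell from 13 to 7 with group-centred values and to 7 without *Srsf10-kd* 1. Without single livers the median log2 fold change of the members was 0.45 to 0.82, that of *Saa1* 1.58 to 3.55, of *Saa2* 1.64 to 4.15 and of *Lcn2* 0.58 to 1.57, each lowest without *Srsf10-kd* 1 and highest without *Srsf10-kd* 4.

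Replicate numbers are shared by both labels and were not taken to pair the livers, as no source ties them to a shared batch. The correlations of same-numbered deviations were -0.18, 0.21, 0.27 and 0.22. Whether the numbers mark a batch was not tested, and these values do not decide it. Of the 8 livers, 5 correlated best with their own number. With the replicate as a block, 59 genes and 0 members were called, 4 members were higher at an unadjusted p under 0.05 (14.1% of all genes), and the log2 fold change was 2.25 for *Saa1*, 2.37 for *Saa2* and 0.61 as the members' median.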
